A study of Homo sapiens with 4 samples.

Results

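The genes examined here are 45 targets of ATF4, taken from a list of symbols and found by their Ensembl identifiers among the 60880 genes of the count table. They fall into 4 classes: 14 stress regulators and stress-induced genes, 11 enzymes of serine, one-carbon, proline and sulfur amino acid synthesis, 7 amino acid transporters, and 13 genes that charge or export tRNA (called synthetases below, of which 12 are tRNA synthetases and XPOT is the tRNA exporter). All 45 were found and all passed the filter on low counts. RNA-Seq libraries came from LNCaP95 cells (genotype WT, replicates 1 and 2) and from LN95(KO) cells (genotype UGT2B17 KO, replicates 3 and 4). LNCaP95 is an androgen-independent human prostate cancer line derived from LNCaP, and CRISPR vectors against UGT2B17 were used to make LN95(KO) from it. Both lines were grown in RPMI1640 medium with charcoal-stripped serum, and neither was treated. How many clones LN95(KO) holds, and whether replicates were separate cultures, is not given in the sources used here, so the tests below measure the spread between these libraries, which may be technical.

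ATF4 is a transcription factor whose mRNA is translated more when the initiation factor eIF2 is phosphorylated. The kinases that do this sense different stresses: PERK senses misfolded protein in the ER, GCN2 senses uncharged tRNA, HRI senses heme shortage and mitochondrial stress, and PKR senses double-stranded RNA. ATF4 then raises genes that import and make amino acids and charge tRNA, and, when stress lasts, genes that end the response or lead to cell death. It often binds together with C/EBP proteins at a composite element in the promoters of its targets.

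Promoter sequences of the members were searched for the core letters of that element. The letters searched were TGATGNAA, on either strand, in RefSeq promoter windows of GRCh38.p14 that run from 250 bases before a start site to 50 after it. Windows were found for 36 of the 45 members, and 16 of them (44.4%) held the motif in at least 1 window. Among all genes with a window the share was 4.46%, and among all 35116 windows it was 3.62%. Of the 36, 17 members had more than 1 window. Among the 19 with 1 window, 6 (31.6%) held the motif, against 3.85% of all genes with 1 window. By class, the motif was found in 7 of 11 synthetases, 4 of 6 transporters, 5 of 13 stress regulators and 0 of 6 biosynthesis enzymes. Among all related genes listed for comparison outside the 45, it was found in 9 of 101 with a window (8.91%). These included 3 of 16 other ATF4 targets (18.8%) and 0 of 9 other cytosolic synthetases and partners. A match is a run of letters, and binding was not measured here. The sites below are examples from the classes that held the motif, 9 of the 16 members with a match, in the direction of the gene, with the motif in capitals. TTNCATCA is the motif on the opposite strand.

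ASNS, chr7:97872458-97872487, minus strand: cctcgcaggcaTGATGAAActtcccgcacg
CHAC1, chr15:40953251-40953280, plus strand: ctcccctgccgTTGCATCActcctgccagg
CEBPG, chr19:33374060-33374089, plus strand: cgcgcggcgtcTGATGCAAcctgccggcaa
SLC1A4, chr2:64989381-64989410, plus strand: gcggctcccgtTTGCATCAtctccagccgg
SLC1A5, chr19:46784893-46784922, minus strand: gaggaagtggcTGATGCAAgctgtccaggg
MARS1, chr12:57488053-57488082, plus strand: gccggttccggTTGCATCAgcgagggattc
CARS1, chr11:3057407-3057436, minus strand: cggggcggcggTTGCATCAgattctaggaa
TARS1, chr5:33440956-33440985, plus strand: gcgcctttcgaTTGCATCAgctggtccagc
IARS1, chr9:92293692-92293721, minus strand: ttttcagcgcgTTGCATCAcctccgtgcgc

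Over the 7 synthetases that held it, the first base of the motif lay at -187 in AARS1, -33 in GARS1, -13 in IARS1, -4 in MARS1, -2 in CARS1, 3 in TARS1 and 15 in NARS1, counting the first base of the transcript as 1. In CHAC1 and ASNS it began at bases -209 and -68. The motif was also found in ATF3 (-191), which rose in LN95(KO) as given below. JDP2 (-16) and SLC3A2 (38) held it too, and their falls did not pass in every fit. Whether the motif goes with the direction of change was not tested.

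Nearly the whole list was lower in LN95(KO). At an adjusted p under 0.05, 41 of 45 members fell and 1 rose (edgeR quasi-likelihood test, p-values adjusted by Benjamini-Hochberg over the 15626 genes tested). Of all genes tested, 30.1% were lower and 29.8% higher by the same rule. The falls were moderate, and the members' median log2 fold change (LN95(KO) over LNCaP95) was -0.45 against -0.01 for all genes tested. Only ATF5, SLC1A4 and ALDH1L2 fell by more than 2-fold, which is the study's second criterion. Of all genes tested, 18.0% passed both criteria, 9.13% in the lower and 8.86% in the higher direction. The members that did not pass were PPP1R15A, CBS and SLC7A5, and the gene that rose was ATF3. Of the 36 members with at least 100 CPM (read counts scaled to library size with TMM factors), 35 fell and 1 rose, while of all 1933 tested genes at that level 32.2% were lower and 43.6% higher. In bulk libraries fewer cells with a transcript and less of it per cell cannot be told apart.

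**Figure D1:**
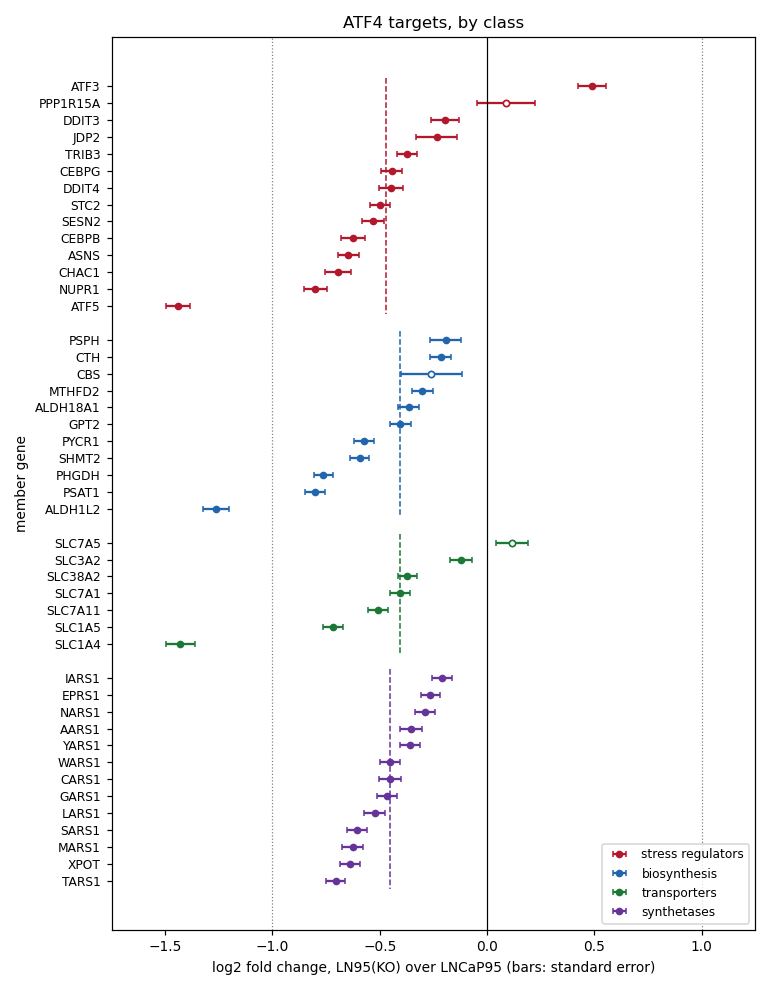
Log2 fold change of each of the 45 members (horizontal axis, LN95(KO) over LNCaP95, bars show the standard error), grouped by class, with open circles for genes with an adjusted p of at least 0.05. Vertical dashed lines mark class medians and dotted lines a 2-fold change. ATF3, PPP1R15A and SLC7A5 lie right of 0 and the other 42 members lie left of it.

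Gene reads numbered from 17330338 to 18813193 per library. The reads of all 45 members together made up 1.78% and 1.76% of gene reads in LNCaP95 against 1.30% and 1.28% in LN95(KO). The mean share in LN95(KO) divided by that in LNCaP95 was 0.677 for biosynthesis, 0.709 for stress regulators, 0.754 for synthetases and 0.773 for transporters. The libraries of each group were close to each other and far from the other group in most members: the values did not overlap in 44 of 45, 42 of them lower and 2 higher in LN95(KO), against 79.8% of all tested genes, 39.9% lower and 39.8% higher. UGT2B17, which checks the labels, had 2788 and 2748 reads in LNCaP95 against 21 and 20 in LN95(KO) (log2 fold change -7.04, SE 0.10, adjusted p 1.18e-18, edgeR). Among 8 markers of luminal prostate cells, KRT8 had 11085 to 14233 reads per library and KRT18 2205 to 2457. Some listed markers of other cell types were at or near 0. KRT5 and TP63 had at most 3 reads per library. DCN and CD3E had 0 reads in all libraries, and PTPRC had 1 read over the 4 libraries. KRT14 rose from 1 and 2 reads in LNCaP95 to 17 and 20 in LN95(KO), and VWF from 8 and 8 to 49 and 58. COL1A1 rose from 525 and 520 reads to 606 and 580, and LUM fell from 24 and 19 to 0 and 0. The summed basal, and the summed immune and endothelial, markers (7 genes found) lay at 0.163 to 0.488 CPM in LNCaP95 and 1.02 to 3.29 CPM in LN95(KO), chiefly from KRT14 and VWF. The 5 stromal markers summed to 30.2 and 31.2 CPM in LNCaP95 against 32.6 and 35.7 CPM in LN95(KO), most of it COL1A1. Their part in the results was not tested.

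**Figure D2:**
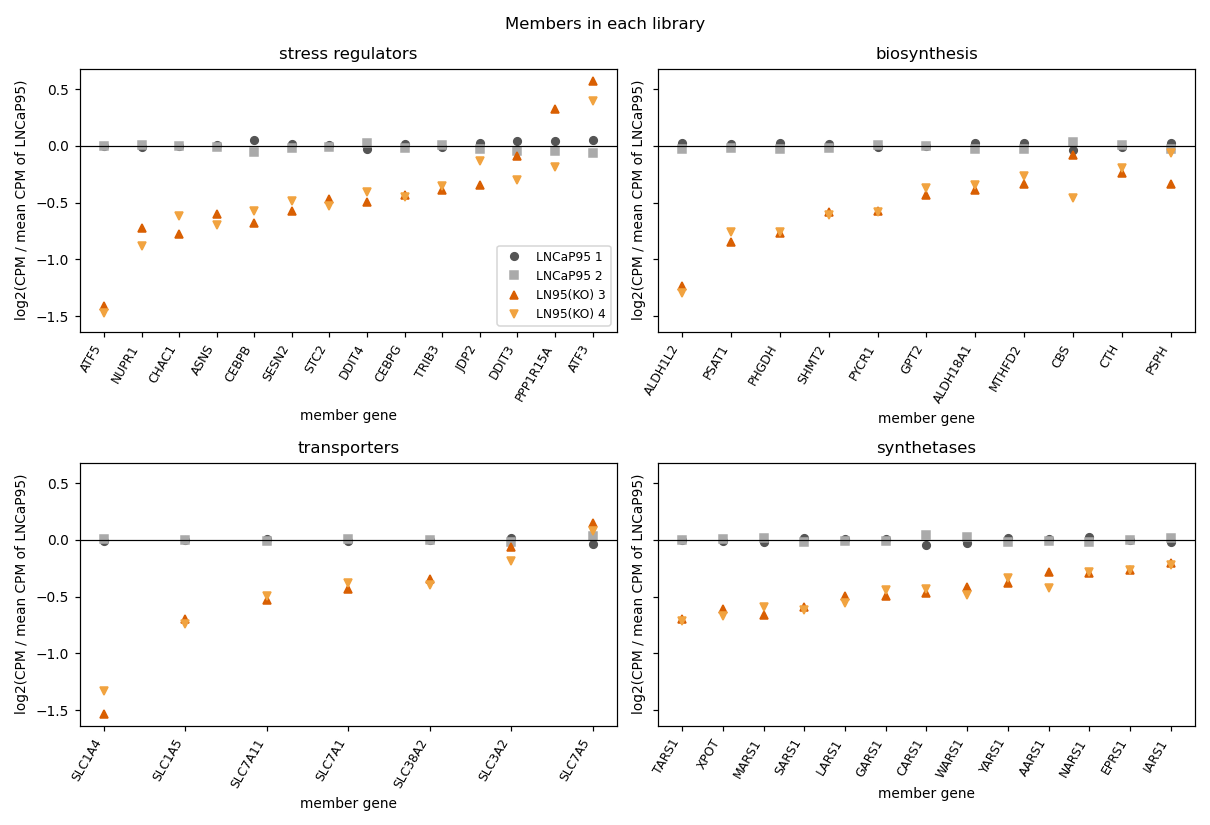
Each member in each of the 4 libraries, as the log2 ratio of its CPM to the mean CPM of the LNCaP95 libraries, in 4 panels by class. Grey points (LNCaP95) lie close to 0, and the orange points (LN95(KO)) lie below them in 42 members and above them in ATF3 and SLC7A5, while in PPP1R15A the groups overlap.

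The median of the stress regulators was -0.47 on the log2 scale, with 12 of 14 lower and 1 higher at an adjusted p under 0.05. ATF5, a transcription factor of the same family as ATF4 that is itself a target of the response, was among the 3 members that fell by more than 2-fold. It had 144 and 143 CPM in LNCaP95 against 54.1 and 51.8 CPM in LN95(KO). The groups lay far apart, and the level in LN95(KO) was 36.9% of that in LNCaP95 (log2 fold change -1.44, SE 0.06, adjusted p 4.9e-13, edgeR). ATF5 lies on chromosome 19, positions 50431959 to 50437192, plus strand of GRCh37, and 22.1% of its exon bases lie under exons of other genes, chiefly NUP62, where reads are ambiguous. NUPR1, a small stress-induced chromatin protein, had 520.5 and 524 CPM in LNCaP95 against 316 and 284 CPM in LN95(KO) (log2 fold change -0.80, SE 0.05, adjusted p 6.79e-10, edgeR). CHAC1, which degrades glutathione and is among the genes most strongly induced by ATF4, had 115 and 115 CPM in LNCaP95 against 67.1 and 75.2 CPM in LN95(KO) (log2 fold change -0.69, SE 0.06, adjusted p 2.64e-08, edgeR). Both genes were lower in each LN95(KO) library than in either LNCaP95 library. In NUPR1 16.5% of exon bases lie under a second annotated gene.

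ASNS, asparagine synthetase, is the classic target of amino acid shortage through GCN2. Per kilobase of annotated exon, with all transcripts of a gene merged, it had the highest level of the stress class in LNCaP95, 140.1 CPM per kilobase. It had 692 and 680.0 CPM in LNCaP95 against 452 and 424 CPM in LN95(KO). The fall of 0.65 on the log2 scale (SE 0.05, adjusted p 3.18e-09, edgeR) leaves 63.9% of the LNCaP95 level. Another annotated gene covers 49.3% of the exon bases of ASNS, so its count holds only reads that were not ambiguous. CEBPB and CEBPG, partners with which ATF4 binds DNA, fell by 0.63 and 0.44 on the log2 scale. CEBPB shares 12.6% of its exon bases with an antisense gene. SESN2 and DDIT4, inhibitors of the growth kinase mTORC1, fell by 0.53 and 0.45. TRIB3, a pseudokinase that feeds back on ATF4, fell by 0.37, and STC2, a secreted glycoprotein, by 0.50. For these 6 genes the adjusted p lay between 3.61e-08 and 2.63e-06.

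ATF3, a stress-induced factor of the same family that also responds to other signals, was the only member that rose. It had 90.4 and 83.4 CPM in LNCaP95 against 129.7 and 114 CPM in LN95(KO), so both LN95(KO) libraries lay above both LNCaP95 libraries (log2 fold change 0.49, SE 0.06, adjusted p 4.63e-06, edgeR). DDIT3, which encodes the pro-apoptotic factor CHOP, had 116 and 109 CPM in LNCaP95 against 105 and 91.1 CPM in LN95(KO). The groups did not overlap, but the LN95(KO) libraries differed by more than the nearest libraries of the groups did (log2 fold change -0.19, SE 0.07, adjusted p 0.0165, edgeR), and without LN95(KO) replicate 4 the change was -0.09 (adjusted p 0.217) and without LNCaP95 replicate 1 it was -0.15 (adjusted p 0.149), neither passing. DDIT3 on chromosome 12, positions 57910371 to 57915520, minus strand of GRCh37 overlaps the end of its neighbour MARS1 on the plus strand (positions 57869228 to 57911352). MARS1 exons cover 27.2% of the exon bases of DDIT3, and other exons bring the share to 39.6%. Since strand was not used in counting, reads in that stretch cannot be told apart. PPP1R15A, which encodes GADD34, the phosphatase subunit that removes phosphate from eIF2, had 14.5 and 13.6 CPM in LNCaP95 against 17.6 and 12.4 CPM in LN95(KO). The LN95(KO) libraries lay on either side of the LNCaP95 libraries (log2 fold change 0.09, SE 0.14, adjusted p 0.593, edgeR). Without LN95(KO) replicate 3 its change was -0.18 (adjusted p 0.238), and without replicate 4 it was 0.33 (adjusted p 0.0328). JDP2, a repressor related to ATF3, changed by -0.23 with an adjusted p of 0.0419, which lay between 0.0145 and 0.268 over 9 alternative fits. JDP2 passed in 4 of these 9 fits. Those in which it did not pass included the fits without LNCaP95 replicate 1 (-0.21), LNCaP95 replicate 2 (-0.26) and LN95(KO) replicate 3 (-0.13).

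The 3 enzymes of serine synthesis all fell. PHGDH catalyses the first step from a glycolytic intermediate towards serine, PSAT1 the transamination that follows and PSPH the last step. PHGDH had 1345 and 1296 CPM in LNCaP95 against 778 and 779 CPM in LN95(KO) (log2 fold change -0.76, SE 0.05, adjusted p 1.59e-10, edgeR). PSAT1 had 1173 and 1142 CPM in LNCaP95 against 643 and 686 CPM in LN95(KO) (log2 fold change -0.80, SE 0.05, adjusted p 1.65e-10, edgeR). The levels in LN95(KO) were 58.9% and 57.4% of those in LNCaP95. Per kilobase of annotated exon, PSAT1 had the highest level of the 45 members in LNCaP95, 525 CPM per kilobase, followed by SARS1 at 236 and SHMT2 at 219. PHGDH had more CPM than PSAT1 but 144 CPM per kilobase, over 9187 annotated exon bases against 2206 for PSAT1. The ranking thus depends on the exons annotated. PSPH had 161 and 155 CPM in LNCaP95 against 125 and 151 CPM in LN95(KO). The LN95(KO) libraries differed widely for this gene (log2 fold change -0.19, SE 0.07, adjusted p 0.032, edgeR). PSPH passed in 5 of 9 alternative fits. Without LN95(KO) replicate 3 the change was -0.06 and without LNCaP95 replicate 1 it was -0.16, neither passing.

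The mitochondrial one-carbon enzymes take serine further. SHMT2 splits serine into glycine and a folate-bound carbon unit, MTHFD2 oxidises that unit, and ALDH1L2 burns it to carbon dioxide with the gain of NADPH. SHMT2 had 1018 and 992 CPM in LNCaP95 against 671 and 661 CPM in LN95(KO) (log2 fold change -0.59, SE 0.04, adjusted p 4.4e-09, edgeR). MTHFD2 had 385 and 369.5 CPM in LNCaP95 against 299 and 314 CPM in LN95(KO) (log2 fold change -0.30, SE 0.05, adjusted p 4.1e-05, edgeR), with 14.2% of its exon bases shared. ALDH1L2 had 109 and 105 CPM in LNCaP95 against 45.5 and 43.5 CPM in LN95(KO) (log2 fold change -1.26, SE 0.06, adjusted p 6.75e-12, edgeR), and its level in LN95(KO) was 41.7% of that in LNCaP95. All 3 were lower in every LN95(KO) library.

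SHMT1 and MTHFD1, cytosolic enzymes related to SHMT2 and MTHFD2 that are not on the list, rose. SHMT1 had 79.4 and 77.7 CPM in LNCaP95 against 139 and 149 CPM in LN95(KO) (log2 fold change 0.88, SE 0.06, adjusted p 3.3e-10, edgeR), and MTHFD1, named after its value was seen, had 50.5 and 48.5 CPM in LNCaP95 against 79.8 and 92.6 CPM in LN95(KO) (log2 fold change 0.80, SE 0.07, adjusted p 3.28e-08, edgeR). The ratio of SHMT2 to SHMT1 reads was 12.8 in each LNCaP95 library but 4.81 and 4.43 in LN95(KO). The ratio of MTHFD2 to MTHFD1 reads was 7.63 and 7.62 against 3.74 and 3.39. Of the 18 serine, glycine and folate genes outside the list, SHMT1 and MTHFD1 included, 14 were tested, 6 rose and 2 fell. Over all genes tested, 29.8% were higher and 30.1% lower. TYMS, which makes thymidylate and follows the cell cycle, rose (2.22). MTHFD2L, a mitochondrial relative of MTHFD2, fell (-1.14), as did SDSL, a serine dehydratase relative (-0.61).

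**Figure D3:**
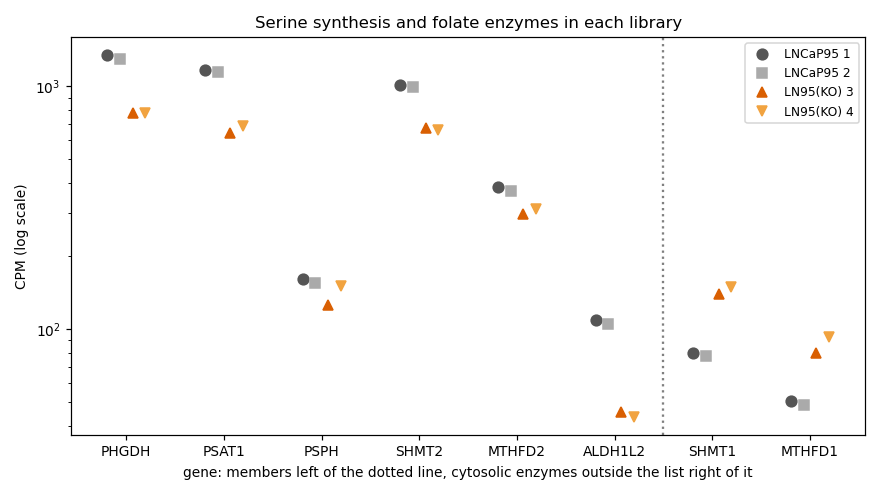
CPM (log axis) of serine synthesis and folate enzymes in each library, with 6 members left of the dotted line and the cytosolic enzymes SHMT1 and MTHFD1 right of it. The LN95(KO) symbols lie below the LNCaP95 symbols for all 6 members and above them for SHMT1 and MTHFD1.

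Over all biosynthesis genes the median was -0.40, with 10 of 11 lower at an adjusted p under 0.05. PYCR1 and ALDH18A1 make proline from glutamate. PYCR1 had 333 and 338 CPM in LNCaP95 against 226 and 224 CPM in LN95(KO) (log2 fold change -0.58, SE 0.05, adjusted p 1.03e-08, edgeR), and ALDH18A1 fell by 0.37 on the log2 scale. GPT2, a mitochondrial alanine transaminase, fell by 0.40. In the pathway from methionine to cysteine, CTH fell by 0.22 (adjusted p 0.0012, edgeR), and CBS had a log2 fold change of -0.26 at a low level of 9.63 ± 0.36 CPM in LNCaP95 (SD, n = 2) and did not pass (adjusted p 0.127, edgeR). Without LN95(KO) replicate 3 the change of CBS was -0.45 and passed (adjusted p 0.0279). Other annotated genes cover 36.8% of the exon bases of CBS and 29.7% of those of PYCR1. Among 17 other amino acid enzymes, 8 rose and 5 fell, against 29.8% higher and 30.1% lower over all genes tested. AHCY, which releases homocysteine from S-adenosylhomocysteine, GOT2, a mitochondrial aspartate transaminase, and GSS, glutathione synthetase, rose by 0.98, 0.83 and 0.82 on the log2 scale. ASS1, which makes argininosuccinate from citrulline and aspartate, had 363 and 359 CPM in LNCaP95 against 92.5 and 82.4 CPM in LN95(KO) (log2 fold change -2.04, SE 0.06, adjusted p 5.76e-15, edgeR). GCLC, the first enzyme of glutathione synthesis, fell by 0.66, and MAT2A, which makes S-adenosylmethionine, by 0.16.

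The transporters had a median of -0.40 on the log2 scale, with 6 of 7 lower and 1 not passing, and a range from -1.43 to 0.12. SLC1A4, an exchanger of alanine, serine and cysteine, had 99.5 and 101 CPM in LNCaP95 against 34.6 and 39.7 CPM in LN95(KO) (log2 fold change -1.43, SE 0.07, adjusted p 7.29e-12, edgeR). Its relative SLC1A5, the glutamine exchanger, had 359 and 360.5 CPM in LNCaP95 against 222 and 215 CPM in LN95(KO) (log2 fold change -0.72, SE 0.05, adjusted p 5.95e-10, edgeR). SLC1A5 shares 23.8% of its exon bases with other genes. Both were lower in each LN95(KO) library, SLC1A4 at 37.1% and SLC1A5 at 60.8% of the LNCaP95 level. SLC7A11, which imports cystine, fell by 0.51 on the log2 scale, SLC7A1, which imports arginine and lysine, by 0.40, and SLC38A2, which imports small neutral amino acids, by 0.37. The adjusted p of these 3 lay between 5.83e-08 and 2.52e-06.

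The heavy and light chains of the leucine transporter had the smallest values of the class. SLC3A2, the heavy chain shared by SLC7A5 and SLC7A11, had 399.7 and 392 CPM in LNCaP95 against 379 and 349 CPM in LN95(KO) (log2 fold change -0.12, SE 0.05, adjusted p 0.0485, edgeR). SLC3A2 passed in only 3 of 9 alternative fits. Those in which it did not pass included the fits without LNCaP95 replicate 1 (-0.11), LNCaP95 replicate 2 (-0.14) and LN95(KO) replicate 4 (-0.06). The others in which it did not pass used all libraries. SLC7A5, the light chain, had 33.2 and 34.9 CPM in LNCaP95 against 37.8 and 36.1 CPM in LN95(KO) (log2 fold change 0.12, SE 0.07, adjusted p 0.178, edgeR). SLC7A11 reads per SLC3A2 read were 0.727 and 0.734 in LNCaP95 against 0.529 and 0.589 in LN95(KO), while SLC7A5 reads per SLC3A2 read were 0.0831 and 0.0891 against 0.0996 and 0.103. Of 28 other amino acid transporters, 19 were tested, 10 rose and 4 fell, against 29.8% higher and 30.1% lower over all genes tested. SLC36A1, which exports amino acids from lysosomes, had 12.6 and 13.2 CPM in LNCaP95 against 102 and 102 CPM in LN95(KO) (log2 fold change 2.98, SE 0.07, adjusted p 7.12e-16, edgeR). SLC43A1 and SLC43A2, carriers of leucine and other large neutral amino acids outside the SLC7 family, rose by 1.35 and 1.12. SLC6A9, a glycine transporter (-0.96), SLC6A20, which carries proline (-1.48), and SLC38A10 (-0.52) fell.

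All 13 synthetases fell at an adjusted p under 0.05, with a median of -0.45 and a range from -0.70 (TARS1) to -0.21 (IARS1). TARS1, which charges threonine tRNA, had 763 and 762 CPM in LNCaP95 against 471 and 465 CPM in LN95(KO) (log2 fold change -0.70, SE 0.04, adjusted p 4.1e-10, edgeR). XPOT, which carries mature tRNA out of the nucleus, had 908 and 914 CPM in LNCaP95 against 598 and 573 CPM in LN95(KO) (log2 fold change -0.64, SE 0.05, adjusted p 2e-09, edgeR). MARS1, the methionine enzyme and the neighbour of DDIT3, had 420.3 and 432 CPM in LNCaP95 against 269 and 284 CPM in LN95(KO) (log2 fold change -0.63, SE 0.05, adjusted p 5.54e-09, edgeR), with 12.4% of its exon bases shared. SARS1, the serine enzyme, had 916 and 897 CPM in LNCaP95 against 602 and 590.3 CPM in LN95(KO) (log2 fold change -0.61, SE 0.04, adjusted p 3.39e-09, edgeR). In each of these 4 genes both LN95(KO) libraries lay below both LNCaP95 libraries by far more than the libraries of a group differed.

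The remaining synthetases of the list fell by less than 0.61 on the log2 scale. LARS1 fell by 0.52, GARS1 by 0.47, CARS1 and WARS1 by 0.45 each, YARS1 by 0.36, AARS1 by 0.35, NARS1 by 0.29 and EPRS1 by 0.26. These enzymes charge the tRNAs of leucine, glycine, cysteine, tryptophan, tyrosine, alanine and asparagine, and EPRS1 those of glutamate and proline. WARS1 shares 10.6% of its exon bases with other genes. IARS1, the isoleucine enzyme, had 473 and 484 CPM in LNCaP95 against 416 and 412 CPM in LN95(KO) (log2 fold change -0.21, SE 0.05, adjusted p 0.000728, edgeR). The 13 genes together took 0.777% and 0.773% of gene reads in LNCaP95 against 0.591% and 0.577% in LN95(KO).

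Synthetases outside the list moved in both directions. Of 11 genes for the other cytosolic enzymes and the scaffold of the multi-synthetase complex, 10 were tested. Of these 4 rose, 3 fell and 3 did not pass, with a median of 0.12 on the log2 scale. Over all genes tested, 29.8% were higher and 30.1% lower by the same rule, near the shares of this list. QARS1, the glutamine enzyme, had 59.6 and 64.9 CPM in LNCaP95 against 114 and 117 CPM in LN95(KO) (log2 fold change 0.89, SE 0.06, adjusted p 6.18e-10, edgeR). KARS1 and FARSB, for lysine and phenylalanine, rose by 0.34 and 0.35. The 3 that fell were the scaffold proteins AIMP1 (-0.19), AIMP2 (-0.39) and EEF1E1 (-0.65). VARS1, named after its values were seen, had 3 and 5 reads in LNCaP95 against 4 and 94 in LN95(KO) and was not tested. Its mitochondrial counterpart VARS2, named likewise and not tested, had 3 and 1 reads against 127 and 3. In each gene nearly all reads came from 1 LN95(KO) library. Whether reads of these genes were lost in counting was not tested. Of the 17 mitochondrial synthetases, 16 were tested, 8 rose and 1 fell, with a median of 0.26. TARS2 and MARS2 rose by 0.47 and 0.57, and PARS2 fell by 0.44. Reads of the 13 listed genes per read of the other cytosolic list were 9.06 and 9.31 in LNCaP95 against 6.02 and 5.71 in LN95(KO). Per read of the mitochondrial list they were 11.5 and 11.6 against 7.11 and 6.79. With 2 libraries against 2 the smallest two-sided exact permutation p is 0.333, so these ratios are given without a test.

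**Figure D4:**
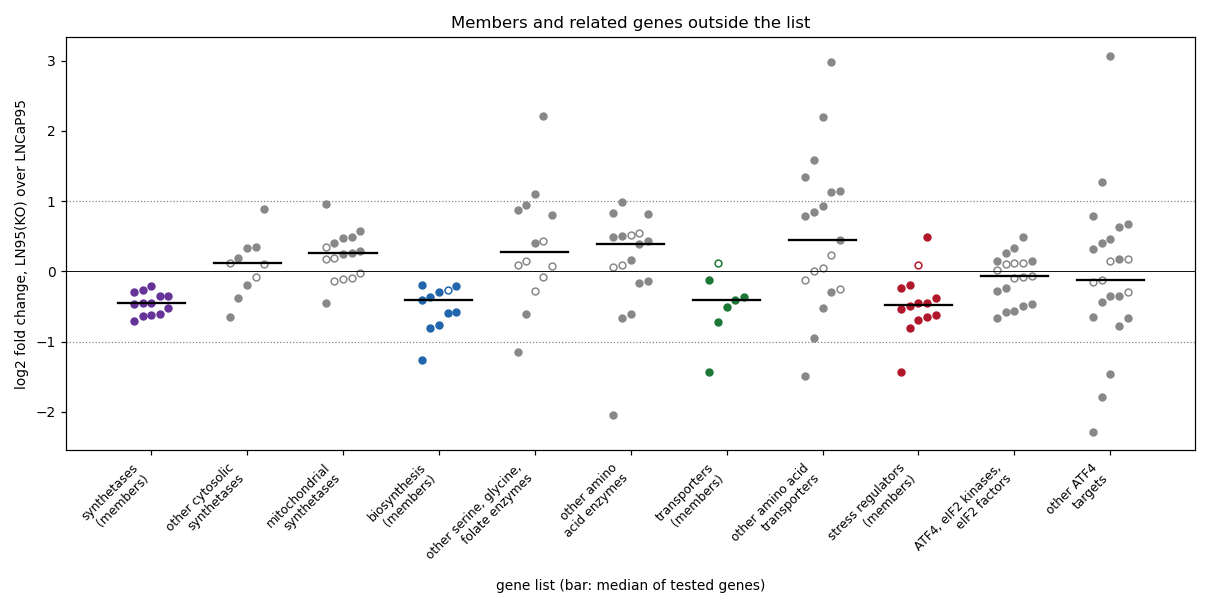
Log2 fold change (LN95(KO) over LNCaP95) of every tested gene of the 4 member classes (coloured) and of related lists (grey), with filled circles for an adjusted p under 0.05 and a bar at the median. The 13 synthetases of the list all lie below 0, and the medians of the other cytosolic (0.12) and mitochondrial (0.26) synthetases lie above it.

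Upstream of the list, the mRNAs of ATF4 and of the eIF2 kinases were examined. ATF4 itself had 1193 and 1168 CPM in LNCaP95 against 826 and 851 CPM in LN95(KO) (log2 fold change -0.49, SE 0.05, adjusted p 4.97e-08, edgeR). Of the kinases, EIF2AK3 (PERK) had 25.7 and 22.9 CPM in LNCaP95 against 14.9 and 15.8 CPM in LN95(KO) (log2 fold change -0.66, SE 0.10, adjusted p 1.38e-05, edgeR). EIF2AK1 (HRI) and EIF2AK2 (PKR) fell by 0.47 and 0.56 on the log2 scale. EIF2AK4 (GCN2) had 59.7 and 59.8 CPM in LNCaP95 against 83.2 and 84 CPM in LN95(KO) and rose (log2 fold change 0.48, SE 0.06, adjusted p 1.19e-06, edgeR), as did its activator GCN1 (0.33) and DELE1 (0.26), which carries mitochondrial stress to HRI. Of the 19 genes in this list 5 rose and 7 fell, with a median of -0.06. Over all genes tested, 29.8% were higher and 30.1% lower. These are mRNA levels, and neither the phosphorylation of eIF2 nor the translation of ATF4 was measured in these libraries. The study used qPCR and immunoblots on both lines under thapsigargin, an ER stress inducer. There it reported higher CHOP and GADD34 mRNA and more phosphorylated PERK and eIF2 in LN95(KO). It also reported higher basal PERK signalling in LN95(KO). Here DDIT3 fell, though not in all fits and not with DESeq2, the tool of the study, and PPP1R15A did not pass. Why these measures differ was not tested.

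A second list of 23 ATF4 targets held genes of both directions, with 9 higher, 9 lower and 5 not passing and a median of -0.12. Over all genes tested, 29.8% were higher and 30.1% lower. GRB10, an adaptor that dampens insulin signalling, had 823 and 839 CPM in LNCaP95 against 174 and 168 CPM in LN95(KO) (log2 fold change -2.28, SE 0.05, adjusted p 1.45e-16, edgeR). BCAT1, the cytosolic branched-chain transaminase, and ADM2, a secreted peptide, fell by 1.79 and 0.67. NDRG1, which also responds to hypoxia and androgen, had 22.3 and 18.8 CPM in LNCaP95 against 187 and 157 CPM in LN95(KO) (log2 fold change 3.07, SE 0.10, adjusted p 8.28e-11, edgeR). ERO1A, an ER oxidase, and KLHL24 rose by 1.28 and 0.64.

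Of the 41 members that fell, 37 passed and were lower in all 9 alternative fits, and the other 4 were DDIT3, JDP2, PSPH and SLC3A2. ATF5, SLC1A4 and ALDH1L2 were over 2-fold lower in all 9, and ATF3 was higher in all 9. Leaving out the 11 members that share over 10% of their exon bases with another gene left 34 members, of which 31 fell and 1 rose.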

How the data were processed

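RNA-Seq was measured in 4 libraries, 2 of LNCaP95 and 2 of LN95(KO), grouped by their titles. The deposited values are raw read counts per gene. To make them the authors mapped reads with HISAT2 2.1.0 (build hg19) and ran HTSeq, strand not used, with GENCODE release 29. Reads that align more than once or fall on more than 1 gene are left out by HTSeq, so near-identical copies, pseudogenes and overlapping genes lose reads. Depth was 17330338 to 18813193 gene reads, at which a count of 0 allows up to 3 counts (0.16 to 0.173 CPM). Such limits cover counting error only. Between the series table and the files of single libraries 0 cells differed.

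Symbols were assigned through Ensembl identifiers (59899 of 60880 matched; PECAM1, a marker, was not found). Gene coordinates, exon lengths and shared exon bases came from GENCODE release 44 on GRCh37, a later release on the build of the counts. An exon length merges the exons of all annotated transcripts of a gene, so it can exceed the length of the mRNA. Promoter windows came from RefSeq on GRCh38.p14. Genes were tested with the edgeR (version 4.0.16, R 4.3.3) quasi-likelihood test with robust estimation, TMM factors, filterByExpr at its defaults (minimum count 10) and no covariate, with Benjamini-Hochberg adjustment over all genes tested. HTSeq summary lines (not aligned, ambiguous and the like) entered neither library sizes nor tests; ambiguous reads were 9.82% to 10.4% of all entries. A gene that fell or rose had an adjusted p under 0.05, and the study's further criterion was a fold over 2. Positive fold changes are higher in LN95(KO). The standard error was the absolute log2 fold change divided by the square root of F. The study used DESeq2, which served as an alternative here (version 1.42.0). Replicates differed by more than sampling noise (chi-square per degree of freedom 2.33 and 3.34). The scripts were tested on simulated data. Members, lists and tests were chosen with earlier results of these data known. All members are accounted for. In the other lists ATF4, the 4 eIF2 kinases and the 3 genes with the smallest adjusted p in each direction were named. Some genes that this rule names are not reported here. Other names were chosen after their values were seen.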

Additional observations from a re-analysis of the deposited data

Results flagged for a closer look

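Reads that did not align, a class that no comparison of the report uses, made up 8.05% and 7.707% of entries in LN95(KO) and 3.85% and 3.96% in LNCaP95. The members are counted among aligned reads only, and whether this share bears on them was not tested.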

How the results depend on the processing

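No paired analysis was possible because LNCaP95 carries numbers 1 and 2 and LN95(KO) numbers 3 and 4. The alternatives were RLE factors, upper quartile factors, library totals, DESeq2, no filter on low counts and leaving out each library, where the lone library of a group is assumed to vary like the other group. The number of members that fell at an adjusted p under 0.05 lay between 37 and 41 over these fits, and 3 members passed a 2-fold change in each. The number that rose was 1, and 1 to 2 when a library was left out, the additional gene being PPP1R15A without LN95(KO) replicate 4.

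Class medians moved with the scaling by more than the spread between replicates. With upper quartile factors they were -0.51 (stress regulators), -0.44 (biosynthesis), -0.44 (transporters) and -0.49 (synthetases), and with library totals -0.42, -0.35, -0.35 and -0.40. These factors move all genes by -0.04 and 0.06 on the log2 scale. Without members that share over 10% of exon bases the medians were -0.44 for stress regulators and -0.50 for biosynthesis, from fewer genes. Leaving out 1 library gave medians of -0.45 to -0.40 for biosynthesis and -0.48 to -0.42 for synthetases, and the cause was not tested. No class median changed sign. Over single members, 19 alternative values no longer passed and 2 passed that had not. With 2 libraries a group, differences as small as those of SLC3A2 or JDP2 depended on the fit.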
